A study of Mus musculus with 12 samples.

Results

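Tumor cells that invade have to cut and rebuild the extracellular matrix around them. The 9 genes described here encode proteins that do this work: the matrix metalloproteinases *Mmp2*, *Mmp9* and *Mmp14*, the tissue inhibitors of metalloproteinases *Timp1*, *Timp2* and *Timp3*, the heparan sulfate-cleaving enzyme *Hpse* (heparanase), and the lysyl oxidases *Lox* and *Loxl2*. They were chosen by function and symbol, matched to 1 Ensembl identifier each, and made up 9 of the 38924 genes counted. All 9 were among the 16645 genes that passed the filter on low counts. RNA had been sequenced from 12 pancreatic neuroendocrine tumors (PanNETs, the islet tumors or insulinomas of the labels) of RIP1TAG2 mice of strain C57Bl6. In this model a rat insulin promoter drives a viral T antigen in pancreatic beta cells, and the control animals carry the transgene as well. The groups were 4 control tumors from mice given saline, 4 from mice given sunitinib alone, which blocks the receptors for VEGF and PDGF, and 4 from mice given rapamycin, an mTOR inhibitor, together with sunitinib (R+S). Per the labels, treatment started at 15.5 weeks of age and lasted 4 days in every group, and the doses are not given in the sources used here.

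Metalloproteinases use a zinc ion to cut matrix proteins. *Mmp2* and *Mmp9*, the gelatinases, digest denatured collagen and basement membrane collagen, and *Mmp14* sits in the cell membrane, where it cuts collagen and activates the secreted precursor of *Mmp2* in a complex that also holds *Timp2*. The inhibitors block the active site, and *Timp3* is the one that stays bound to the matrix. Heparanase trims the heparan sulfate chains of basement membranes and releases growth factors held there, while lysyl oxidases cross-link collagen and elastin and are known as hypoxia-induced genes. In RIP1Tag tumors, gelatinase activity is known for releasing VEGF from the matrix at the angiogenic switch.

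The zinc-binding sites of the 3 proteases are shown because they are a shared feature of the family that the inhibitors act on. Each is given as 33 coding bases on the GRCm38 build, plus strand, with the 3 histidine codons that hold the zinc ion in capitals. The sites lie in coding exons: exon 8 of *Mmp2* (chr8:92839279-92839311), exon 8 of *Mmp9* (chr2:164951133-164951165) and exon 5 of *Mmp14* (chr14:54437627-54437659).
Mmp2: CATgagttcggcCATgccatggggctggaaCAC
Mmp9: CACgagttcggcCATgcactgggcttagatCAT
Mmp14: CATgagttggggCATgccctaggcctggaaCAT
The *Mmp2* and *Mmp14* sites had 27 identical bases of 33, and each of the other 2 pairs had 25. The search was for this spacing of the 3 histidine codons, with a glutamate codon directly after the opening one and a glycine codon between the last 2. This full pattern was found in 17 of 17 other metalloproteinase genes examined and in 69 of the 21901 genes with a coding transcript (0.315%). It was found in none of the other 6 genes described here.

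The RefSeq table of promoters (GRCm38.p6) held 5 of the 9 genes, *Mmp14*, *Timp1*, *Timp2*, *Timp3* and *Hpse*. The 250 bases upstream of the start are shown for *Timp3* (chr10:86300162-86300411, plus strand) and *Mmp14* (chr14:54431348-54431597, plus strand), since these transcripts were lower in every R+S-treated than in every control tumor. Capitals mark the core of the hypoxia response element, ACGTG or GCGTG, read on either strand.
Timp3: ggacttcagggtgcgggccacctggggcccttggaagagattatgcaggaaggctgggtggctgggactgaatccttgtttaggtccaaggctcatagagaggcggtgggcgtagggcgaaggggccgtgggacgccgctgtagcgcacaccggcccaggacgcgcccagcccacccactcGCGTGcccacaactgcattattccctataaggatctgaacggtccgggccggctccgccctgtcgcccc
Mmp14: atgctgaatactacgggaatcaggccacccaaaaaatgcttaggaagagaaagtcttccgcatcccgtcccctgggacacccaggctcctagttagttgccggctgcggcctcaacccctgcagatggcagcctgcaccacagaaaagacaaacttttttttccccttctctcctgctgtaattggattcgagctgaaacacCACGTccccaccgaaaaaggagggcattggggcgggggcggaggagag
The core began 69 bases upstream of the *Timp3* start and, on the minus strand, 48 bases upstream of the *Mmp14* start. All 5 promoters held at least 1 such core, as did 38.6% of the 32851 promoters in the table, and *Timp1* held 2. A GC box, GGGCGG on either strand, was present in all 5 and in 32.7% of all promoters, and the AP-1 motif TGANTCA was present in none of the 5 and in 6.75% of all. No GC box overlapped a hypoxia core in these 5 windows. These matches describe letters in a window and are not binding sites.

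Between 31872342 and 44215054 reads per tumor had been counted on genes (median 38526164). Tumors are named by the replicate numbers in their labels. Beta-cell markers (8 genes, among them *Ins1*, *Ins2* and *Pdx1*) were detected in every tumor, but sunitinib tumor 6 stood apart: its markers summed to 1646 CPM (counts per 1000000 of each library's TMM-adjusted total) against 29064 to 74537 CPM in the other 11 tumors. Its log2 CPM correlated at 0.872 to 0.895 with the other sunitinib-treated tumors, whose correlations with each other were 0.957 to 0.978. Results that rest on it are therefore given with and without it. The labels also carry a prefix that is shared by the 4 control tumors, 3 of the sunitinib-treated and 2 of the R+S-treated tumors. Its meaning is not stated, no prefix occurs in more than 1 group, and prefix and treatment cannot be told apart. Nothing states that the tumors of a group came from separate mice, so p-values measure the spread between these tumors.

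In the fit of all 12 tumors, 0 of the 9 genes passed an adjusted p of 0.05 in any of the 3 comparisons (edgeR quasi-likelihood F-test, Benjamini-Hochberg over all genes tested). The background was 4.48% of all genes called between sunitinib and control, 4.16% between R+S and control and 7.21% between R+S and sunitinib. At an unadjusted p under 0.05 there were 2 of the 9 in each comparison, against 19.5%, 20.1% and 30.4% of all genes. DESeq2 called 0 of 8, 1 of 8 (*Mmp14*) and 1 of 7 (*Timp1*) in the same order, where it called 9.06%, 10.4% and 19.5% of all genes with an adjusted p. It gave no adjusted p for *Timp3* in any comparison, nor for *Mmp9* between R+S and sunitinib, so these could not be called. With sunitinib tumor 6 left out of the fit, 1 gene (*Timp3*) was called between sunitinib and control, where 5.3% of all genes were (3.34% lower). The other 2 comparisons gave 3 genes (*Timp3*, *Mmp14* and *Loxl2*; 9.67% of all genes, 5.56% lower) and 1 gene (*Loxl2*; 10.1% of all genes, 5.89% lower). All these calls were lower in the group named first. With only the 8 tumors of R+S and control in the fit, the same 3 genes were called, and 15.8% of all genes. The median log2 fold change of the 9 genes with 12 tumors was -0.29, -0.62 and -0.35 in the same order, beside 0.03, 0.01 and -0.02 over all genes tested. Without sunitinib tumor 6 these medians were 0.0086, -0.62 and -0.29, beside -0.0053, 0.0096 and 0.025 over all genes tested.

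**Figure D1:**
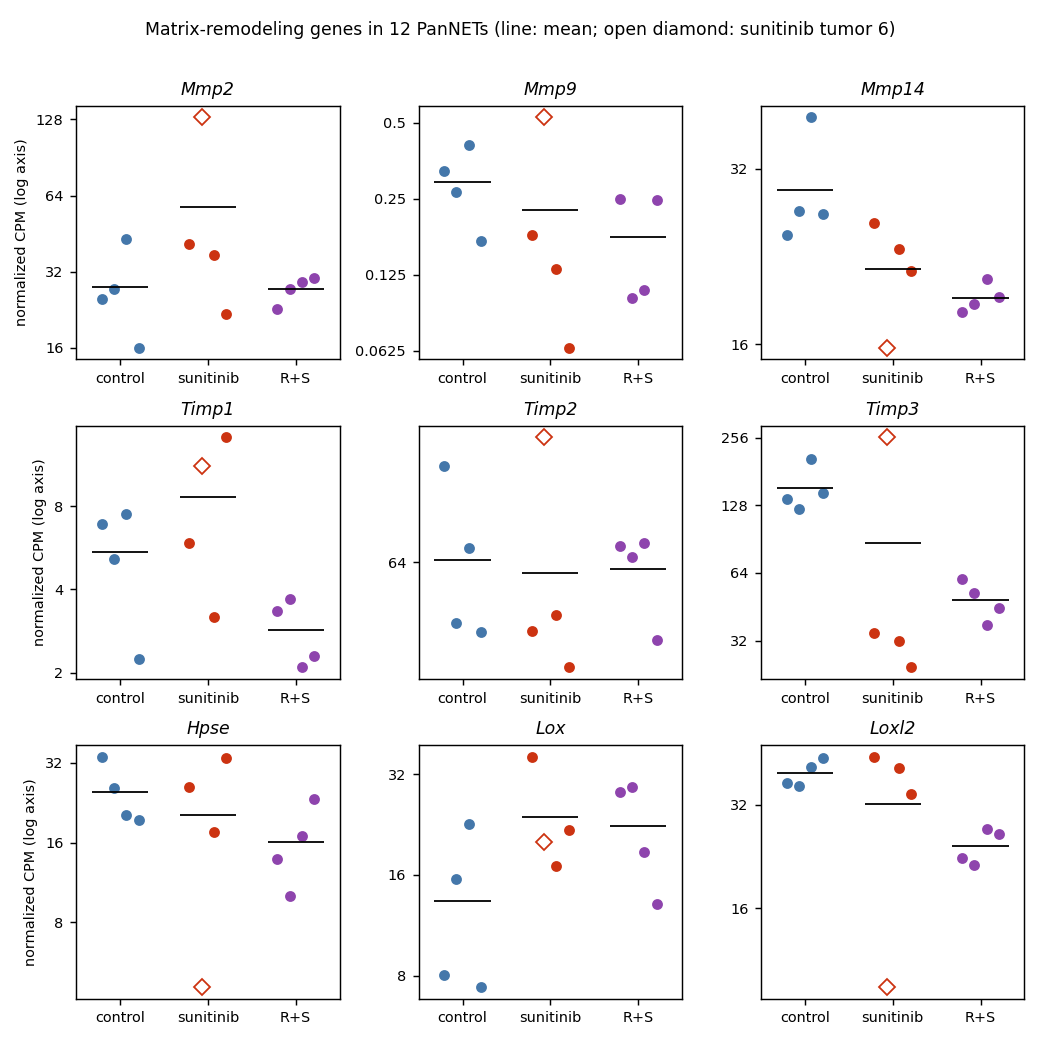
Normalized CPM (log axis) of the 9 genes, 1 point per tumor in the control, sunitinib and R+S groups (n = 4 each), with a line at the mean; the open diamond is sunitinib tumor 6. The 4 R+S-treated tumors lie below the 4 control tumors for *Mmp14*, *Timp3* and *Loxl2*, and sunitinib tumor 6 lies outside the range of the other sunitinib-treated tumors for 7 of the 9 genes.

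On a scale per length (RPKM, normalized CPM divided by exon kilobases from GENCODE M21), *Timp3* and *Timp2* were the most abundant of these transcripts in control tumors. *Timp3* stood at 18.8 ± 4.52 RPKM (SD, n = 4) and *Timp2* at 16.6 ± 4.43 RPKM, a difference within their spread. *Mmp2* followed at 8.27 ± 3.36, *Loxl2* at 7.33 ± 0.665, *Hpse* at 7.04 ± 1.86, *Timp1* at 6.13 ± 2.64, *Mmp14* at 4.94 ± 1.11 and *Lox* at 2.80 ± 1.50 RPKM, and each of these 6 overlapped the next of them in range. *Mmp9* was last at 0.0820 ± 0.0281 RPKM, below every other gene in all 3 groups. In R+S-treated tumors *Timp2* was first at 16.1 ± 2.26 RPKM, above *Mmp2* at 8.12 ± 0.964 RPKM with no overlap, and *Timp3* followed at 5.98 ± 1.2 RPKM. The sunitinib-treated tumors had no such separation at the top, with ranges of 6.47 to 38.7 RPKM for *Mmp2*, 11.6 to 24.8 RPKM for *Timp2* and 2.98 to 31.7 RPKM for *Timp3*.

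*Timp3*, the matrix-bound inhibitor (chr10:86300372-86349506, plus strand), had the largest difference of the 9 between R+S and control. It was measured at 137, 123, 207 and 146 CPM in control tumors 1 to 4. Sunitinib tumors 5, 8 and 12 had 34.4, 31.8 and 24.3 CPM, while sunitinib tumor 6 had 258 CPM, the highest value of all 12. R+S tumors 4, 5, 7 and 10 had 60.3, 52.2, 37.5 and 44.8 CPM. Thus every R+S-treated tumor and 3 of 4 sunitinib-treated tumors lay below every control tumor. Its log2 fold change between R+S and control was -1.65 ± 0.65 (SE), a 3.15-fold lower level, with an edgeR adjusted p of 0.183 in the 12-tumor fit and an exact two-sided permutation p of 0.0286, the smallest that 4 against 4 tumors allow. Without sunitinib tumor 6 the value stayed at -1.65 while its SE was 0.20 and the edgeR adjusted p 0.000589. Between sunitinib and control, the log2 fold change was -0.81 ± 0.64 (edgeR adjusted p = 0.511) with tumor 6 and -2.34 ± 0.22 (edgeR adjusted p = 0.000111) without it. For R+S against sunitinib it turned from -0.84 (edgeR adjusted p = 0.394) to 0.69 (edgeR adjusted p = 0.0593) when tumor 6 was left out, with all 4 R+S-treated tumors above the 3 others.

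The *Timp3* gene lies within *Syn3* on the opposite strand, and 21.3% of its exon bases overlap *Syn3* exons. *Syn3* itself had 14 to 95 reads per tumor, against 757 to 9340 for *Timp3*. Endothelial cells and pericytes are known sources of *Timp3*. The 6 endothelial markers (*Pecam1*, *Cdh5*, *Kdr*, *Tie1*, *Emcn*, *Esam*), all detected in every tumor, summed to 303 to 451 CPM in control, 33.2 to 66.8 CPM in sunitinib-treated and 71.3 to 95.3 CPM in R+S-treated tumors. Of these 6, 5 were called lower between sunitinib and control (6 without sunitinib tumor 6) and 5 between R+S and control. The 6 pericyte and smooth muscle markers summed to 363 to 671, 157 to 396 and 268 to 644 CPM. Of these, only *Pdgfrb* and *Rgs5* were called lower with sunitinib and only *Rgs5* with R+S. Without a call, *Cspg4* had 12.4 ± 2.88 CPM in control and 4.34 ± 1.82 CPM with sunitinib, and *Pdgfrb* had 42.9 ± 9.57 CPM in control and 27.8 ± 5.64 CPM with R+S. In each of these comparisons 3 of the 6 had a positive log2 fold change. In bulk tumor RNA, fewer cells of a type and less RNA per cell cannot be told apart, and the part of these cells in the *Timp3* values was not tested. The transcripts most like *Timp3* over the 12 tumors, among 12625 compared, were *Msn* (Pearson r of log2 CPM 0.993) and *Arhgef15* (0.987). Without sunitinib tumor 6 these were 0.992 and 0.984.

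**Figure D2:**
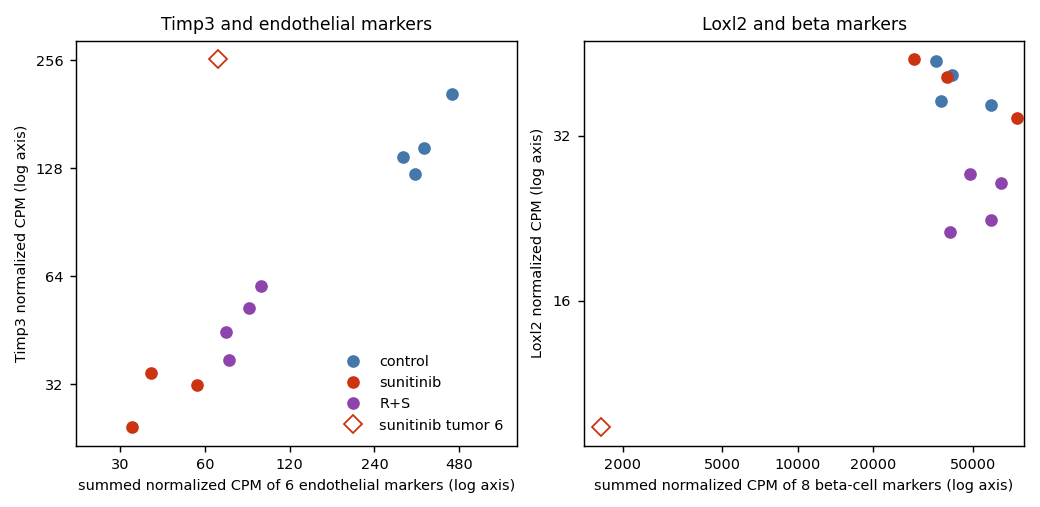
Left, *Timp3* against the summed level of 6 endothelial markers; right, *Loxl2* against the summed level of 8 beta-cell markers, as normalized CPM on log axes, 1 point per tumor. Sunitinib tumor 6 combines the highest *Timp3* level (258 CPM) with an endothelial marker sum of 66.8 CPM, the highest of the 4 sunitinib-treated tumors (33.2 to 56.4 CPM in the others) and below every R+S-treated and control tumor, and the lowest *Loxl2* level (9.40 CPM) with the lowest beta-cell marker sum (1646 CPM).

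*Mmp14*, the membrane-type protease (chr14:54431612-54445364, plus strand), was measured at 24.7, 27.1, 39.3 and 26.8 CPM in control tumors 1 to 4. Sunitinib tumors 5, 6, 8 and 12 had 25.8, 15.8, 23.3 and 21.4 CPM, and R+S tumors 4, 5, 7 and 10 had 18.2, 18.7, 20.7 and 19.3 CPM. The R+S-treated tumors formed a narrow band below all 4 control tumors, and 3 of the 4 sunitinib-treated tumors also lay below them. The log2 fold change between R+S and control was -0.61 ± 0.18 (SE), 1.53-fold lower, with an edgeR adjusted p of 0.0783 and an exact permutation p of 0.0286. It was -0.61 ± 0.15 with an edgeR adjusted p of 0.0281 without sunitinib tumor 6. Between sunitinib and control it was -0.45 ± 0.18 (edgeR adjusted p = 0.194) with that tumor and -0.32 ± 0.16 (edgeR adjusted p = 0.297) without it. For R+S against sunitinib it was -0.17 with a 95% interval of -0.56 to 0.23, and -0.29 with an interval of -0.64 to 0.06 without it.

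*Mmp2*, gelatinase A (chr8:92827291-92853420, plus strand), was measured at 25.0, 27.2, 43.2 and 16.0 CPM in control, 41.3, 131, 37.2 and 21.8 CPM in sunitinib-treated and 22.9, 27.2, 29.2 and 30.2 CPM in R+S-treated tumors. The groups overlapped in every comparison, and the highest value was again that of sunitinib tumor 6. Its log2 fold change between sunitinib and control was 1.05 ± 0.47 (edgeR adjusted p = 0.249) with that tumor and 0.26 ± 0.30 (edgeR adjusted p = 0.653) without it. For R+S against control it was -0.03 with a 95% interval of -1.05 to 1.00. Fibroblasts are the usual source of this protease in tumors, and the 6 fibroblast markers (*Col1a1*, *Col1a2*, *Col3a1*, *Dcn*, *Lum*, *Pdgfra*) summed to 314 to 906 CPM in control, 681 to 964 CPM in sunitinib-treated and 406 to 502 CPM in R+S-treated tumors, none of them called in the 12-tumor fit.

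*Mmp9*, gelatinase B (chr2:164940780-164955850, plus strand), was hardly detected. It had 6 to 16 reads per control tumor, 2 to 19 per sunitinib-treated tumor and 4 to 10 per R+S-treated tumor, which put its means at 0.290 ± 0.0994, 0.225 ± 0.206 and 0.177 ± 0.0830 CPM (SD, n = 4 each). At these counts no difference was detectable: the log2 fold change was -0.36 ± 0.56 (SE) between sunitinib and control and -0.71 ± 0.57 between R+S and control. Without sunitinib tumor 6, which had 19 of these reads, *Mmp9* passed the filter on low counts through control tumors alone. Its log2 fold changes in that fit are therefore given without a test. They were -1.17 between sunitinib and control and 0.46 between R+S and sunitinib, where the value with tumor 6 was -0.35. Neutrophils and macrophages are common sources of *Mmp9*. Of 6 neutrophil markers, 1 passed the filter on low counts, and their sum was 5.11 to 7.51, 2.60 to 6.02 and 4.80 to 8.09 CPM in control, sunitinib-treated and R+S-treated tumors. The 7 macrophage markers, all detected in control tumors, summed to 341 to 465, 137 to 387 and 228 to 348 CPM. Of these 7, 2 were called lower between sunitinib and control and 1 between R+S and control, where 2.55% and 2.61% of all genes were. In the same order, 2 and 1 of the 7 had a positive log2 fold change. Sunitinib tumor 6, with the most *Mmp9* reads, had the lowest sum of both marker lists (2.60 and 137 CPM). The part of these cells in the *Mmp9* values was not tested.

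*Timp1*, a secreted inhibitor that binds the precursor of *Mmp9* (chrX:20870166-20874735, plus strand, inside the span of *Syn1* on the other strand without shared exon bases), was measured at 6.87, 5.13, 7.51 and 2.25 CPM in control tumors. The sunitinib-treated tumors had 5.87, 11.2, 3.19 and 14.2 CPM and the R+S-treated tumors 3.36, 3.69, 2.09 and 2.30 CPM. The R+S values were low and close together, but the groups overlapped in all comparisons. The largest difference was between R+S and sunitinib, at a log2 fold change of -1.59 ± 0.48 (SE) with an edgeR adjusted p of 0.0627 and an exact permutation p of 0.0857. This difference passed the threshold with DESeq2 (adjusted p = 0.00883) and in 2 of the 8 fits that left out 1 tumor. These were the fits without sunitinib tumor 5 (edgeR adjusted p = 0.0427, with 16.9% of all genes called) and without sunitinib tumor 8 (0.0446, with 4.32% of all genes called). In the other 6 the edgeR adjusted p lay between 0.0810 (without sunitinib tumor 6) and 0.142 (without R+S tumor 7), and with only the 8 tumors compared it was 0.119. The log2 fold change of sunitinib against control was 0.66 ± 0.47 with tumor 6 and 0.51 ± 0.49 without it.

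*Timp2*, the inhibitor that takes part in the activation of the *Mmp2* precursor (chr11:118301069-118355740, minus strand), had nearly the same mean in the 3 groups, 64.6 ± 17.3, 61.7 ± 23.7 and 62.6 ± 8.82 CPM (SD, n = 4 each). Its single values ran from 50.8 to 88.0 CPM in control, from 45.2 to 96.8 CPM in sunitinib-treated and from 49.5 to 68.2 CPM in R+S-treated tumors. The 95% interval of the log2 fold change was -0.61 to 0.48 between sunitinib and control and -0.59 to 0.50 between R+S and control. Each interval spans changes in both directions. Without sunitinib tumor 6 the log2 fold change between sunitinib and control was -0.37 with a 95% interval of -0.79 to 0.05.

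*Hpse*, heparanase (chr5:100679484-100719716, minus strand), was measured at 33.7, 25.7, 20.2 and 19.4 CPM in control tumors, at 25.9, 4.56, 17.5 and 33.4 CPM in sunitinib-treated tumors and at 13.8, 10.1, 16.9 and 23.4 CPM in R+S-treated tumors. Of the R+S-treated tumors, 3 lay below all controls and the other inside their range. The log2 fold change between R+S and control was -0.62 ± 0.47 (SE) with an edgeR adjusted p of 0.487, and -0.62 ± 0.28 with an edgeR adjusted p of 0.179 without sunitinib tumor 6, which had the lowest value of the 12. Between sunitinib and control it was -0.29 ± 0.47 with tumor 6 and 0.05 ± 0.30 without it.

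*Lox*, the founding lysyl oxidase (chr18:52516067-52529867, minus strand), was the only one of the 9 with a positive log2 fold change against control in both treated groups. It was measured at 8.04, 15.5, 22.7 and 7.38 CPM in control tumors, at 36.0, 20.1, 17.0 and 21.8 CPM in sunitinib-treated tumors and at 28.4, 29.2, 18.7 and 13.1 CPM in R+S-treated tumors. The control tumors themselves differed by 3.07-fold, and both treated groups overlapped them. The log2 fold change was 0.83 ± 0.39 (SE) between sunitinib and control (edgeR adjusted p = 0.272) and 0.74 ± 0.39 between R+S and control (edgeR adjusted p = 0.314). Leaving out sunitinib tumor 6 gave 0.90 ± 0.42 and 0.74 ± 0.39. Its most similar transcripts over the 12 tumors were *Fn1*, which encodes the matrix protein fibronectin (r = 0.845), and *Fgfrl1* (0.844). The 8 hypoxia-response genes listed for comparison had a median log2 fold change of 2.31 between sunitinib and control, 1.55 without sunitinib tumor 6, and 0.87 between R+S and control.

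*Loxl2*, a lysyl oxidase that cross-links basement membrane collagen (chr14:69609068-69695834, plus strand), was measured at 37.0, 36.3, 41.2 and 43.9 CPM in control tumors. Sunitinib tumors 5, 8 and 12 had 44.2, 40.9 and 34.4 CPM, within or next to the control range, and sunitinib tumor 6 had 9.40 CPM. R+S tumors 4, 5, 7 and 10 had 22.4, 21.4, 27.2 and 26.3 CPM. All 4 R+S-treated tumors lay below all 4 controls and below the 3 sunitinib-treated tumors other than tumor 6. The log2 fold change between R+S and control was -0.70 ± 0.35 (SE) with an edgeR adjusted p of 0.283, and -0.70 ± 0.12 with an edgeR adjusted p of 0.00617 without sunitinib tumor 6. Between R+S and sunitinib it was -0.41 ± 0.35 (edgeR adjusted p = 0.446) with tumor 6 and -0.71 ± 0.13 (edgeR adjusted p = 0.0238) without it, and between sunitinib and control 0.01 with a 95% interval of -0.28 to 0.30 without it. Over the 12 tumors *Loxl2* was most like *Slit1* (r = 0.990) and *Epha8* (0.955). With sunitinib tumor 6 left out these were 0.973 and 0.857.

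The level of *Loxl2* is uncertain, because 45% of the 50-base words of its transcripts occur in other genes and 42.9% in the pseudogene *Gm21451*. That pseudogene was listed at 0 in all 12 tumors. Reads that align to both copies were left out by the counting, so the *Loxl2* level is understated by an unknown amount, while ratios between tumors rest on its remaining sequence. The beta-cell marker sum was 35615 to 58855 CPM in control and 40544 to 64590 CPM in R+S-treated tumors, with 0 of its 8 genes called between these groups. Markers of pancreatic acinar cells (12 genes) summed to 40.8 to 108 CPM in control, 8633 to 32078 CPM in sunitinib-treated and 2209 to 13495 CPM in R+S-treated tumors. Of these 12, 11 were called higher in each treated group against control. The other, *Bhlha15*, had 41.9 ± 14.7, 37.5 ± 13.9 and 38.0 ± 12.4 CPM. It made up most of the sum in every control tumor but tumor 1, which had the highest control sum (108 CPM). The 11 move with treatment alongside every difference from control given here, and their part in it was not tested.

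Of the 9 genes, 3 (*Timp3*, *Mmp14* and *Loxl2*) had no overlap between R+S and control, all lower in R+S, where 23.5% of all genes had no overlap and 11.9% were lower without overlap. Between sunitinib and control there were 0 of 9, against 10.9% of all genes, or 1 of 9 (*Timp3*) without sunitinib tumor 6, against 16.2%, and between R+S and sunitinib 0 of 9, against 18.6%. Without sunitinib tumor 6, the last comparison gave 3 of 9 (*Mmp14* and *Loxl2* lower, *Timp3* higher with R+S), against 27% of all genes. The 3 comparisons share tumors and are not independent of each other.

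**Figure D3:**
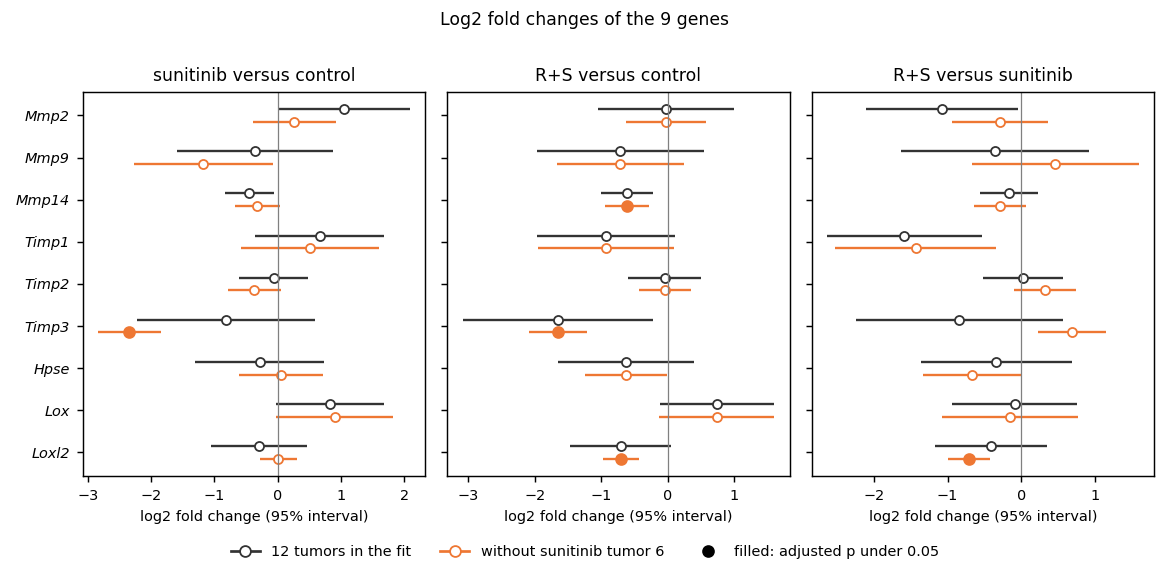
Log2 fold changes of the 9 genes with their 95% intervals in the 3 comparisons, from the edgeR fit of 12 tumors (dark) and from the fit without sunitinib tumor 6 (orange); filled points have an adjusted p under 0.05. No dark point is filled, and the orange points filled are *Timp3* between sunitinib and control, *Timp3*, *Mmp14* and *Loxl2* between R+S and control, and *Loxl2* between R+S and sunitinib.

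The balance of protease and inhibitor transcripts was described as the log2 ratio of their CPM within each tumor, with no test. *Mmp2* relative to *Timp2* stood at -1.26 ± 0.57 (SD, n = 4) in control, -0.36 ± 0.62 in sunitinib-treated and -1.19 ± 0.35 in R+S-treated tumors. Sunitinib tumor 6, at 0.43, was the only tumor with more *Mmp2* than *Timp2* CPM. *Mmp14* relative to *Timp2* was -1.12 ± 0.48 in control, -1.47 ± 0.77 in sunitinib-treated and -1.69 ± 0.23 in R+S-treated tumors. The sunitinib mean was drawn down by tumor 6 at -2.62, while sunitinib tumors 5, 8 and 12 had -0.98, -1.21 and -1.08, inside the control range. The R+S values, -1.89, -1.80, -1.72 and -1.36, lay below 3 of the 4 controls but overlapped control tumor 1 at -1.84. *Mmp9* relative to *Timp1* was -4.16 ± 0.30, -5.46 ± 1.58 and -4.11 ± 0.84, and its lowest value, -7.79 in sunitinib tumor 12, rests on 2 *Mmp9* reads.

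**Figure D4:**
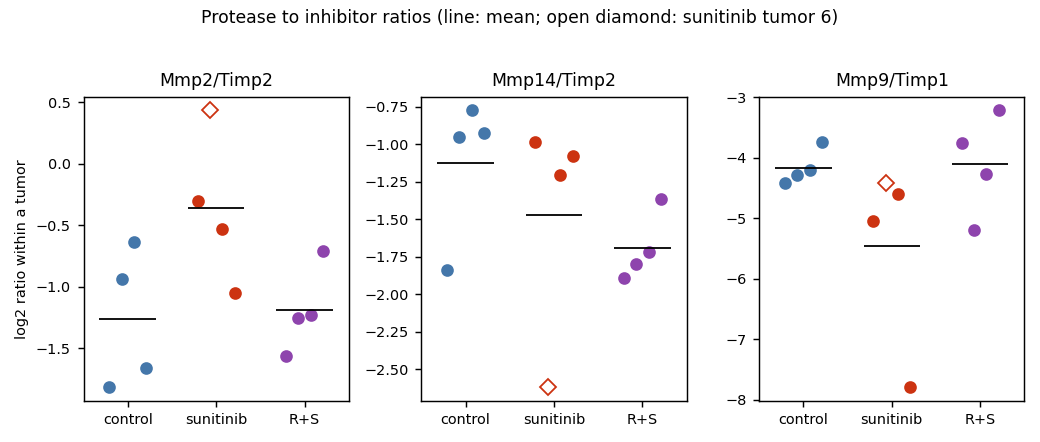
Log2 ratio of protease to inhibitor CPM within each tumor for *Mmp2*/*Timp2*, *Mmp14*/*Timp2* and *Mmp9*/*Timp1*, 1 point per tumor with a line at the group mean; the open diamond is sunitinib tumor 6. The groups overlap in all 3 panels, and sunitinib tumor 6 has the highest *Mmp2*/*Timp2* ratio (0.43) and the lowest *Mmp14*/*Timp2* ratio (-2.62).

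Some other genes of matrix remodeling passed the threshold, and several of these calls were lost when 1 tumor was left out. Of 17 other metalloproteinases, 13 were tested. Leaving *Mmp8* out of the count, 1 rose and 2 fell between sunitinib and control, where 1.93% of all genes were called higher and 2.55% lower. These shares were 1.55% and 2.61% between R+S and control, and 2.63% and 4.58% between R+S and sunitinib. *Mmp12*, the macrophage elastase, rose from 5.00 ± 1.27 CPM in control to 33.7 ± 13.6 CPM in sunitinib-treated tumors, a log2 fold change of 2.75 ± 0.30 (edgeR adjusted p = 0.000247). It also rose with R+S, to 16.3 ± 2.90 CPM (1.70 ± 0.29, edgeR adjusted p = 0.00787), and both calls were kept without each tumor in turn. Between R+S and sunitinib its log2 fold change was -1.05 ± 0.29 (edgeR adjusted p = 0.0493), but this call was kept in 2 of the 8 fits that left out 1 tumor, with adjusted p up to 0.134, and was lost without sunitinib tumor 5 or 12 or any of the 4 R+S tumors. *Mmp13*, a collagenase, fell from 7.97 ± 3.74 CPM in control to 2.36 ± 0.551 CPM with sunitinib and 2.49 ± 0.836 CPM with R+S (edgeR adjusted p = 0.0208 and 0.0318). The first of these calls was lost without control tumor 3 or 4 or sunitinib tumor 8 (adjusted p up to 0.070), the second without control tumor 3 or 4 or R+S tumor 4, 5 or 7 (up to 0.111). *Mmp28* fell with sunitinib by 1.56 on the log2 scale (edgeR adjusted p = 0.0156, or 0.0589 without control tumor 3). *Mmp8*, the neutrophil collagenase, had 14 to 18 reads per sunitinib-treated tumor, 1 to 5 per control tumor and 1 to 6 per R+S-treated tumor, so that it passed the filter on low counts through the sunitinib group alone and its test is not read here.

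Of 25 ADAM and ADAMTS proteases, 22 were tested, of which 1 rose with sunitinib and 0 passed the threshold between R+S and control. Of all genes, 4.48% and 4.16% were called in these 2 comparisons. *Adam8*, a membrane protease of myeloid and tumor cells, rose with sunitinib, from 10.9 ± 2.39 to 21.3 ± 5.98 CPM (log2 fold change 0.96 ± 0.22, edgeR adjusted p = 0.0301), a call lost without control tumor 1, 2 or 4 or sunitinib tumor 5 or 12 (adjusted p up to 0.0932). Between R+S and sunitinib its log2 fold change was -0.81 (edgeR adjusted p = 0.0493), and that call was kept in 1 of the 8 fits that left out 1 tumor, the one without sunitinib tumor 6, with adjusted p up to 0.131 in the others. With sunitinib tumor 6 left out, 24 were tested. *Adam12*, *Adamts1* and *Adamts7* then fell between sunitinib and control, and *Adam12* and *Adamts7* between R+S and control. Of all genes, 3.34% and 5.56% were called lower in these comparisons. *Adam12* had 6.67, 8.25, 13.6 and 8.46 CPM in control tumors, 1.86, 36.2, 1.37 and 0.930 CPM in sunitinib tumors 5, 6, 8 and 12, and 1.17 to 1.54 CPM in R+S-treated tumors. As for *Timp3*, tumor 6 was the highest of the 12 and the other treated tumors lay below all controls.

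Of 14 genes of the plasminogen system and other inhibitors, 11 were tested. Between sunitinib and control 0 were called, and between R+S and control 1, where 4.48% and 4.16% of all genes were. *Plaur*, the urokinase receptor, fell with R+S from 2.02 ± 0.349 to 0.830 ± 0.149 CPM (log2 fold change -1.28 ± 0.23, edgeR adjusted p = 0.00989, at most 0.0445 with any 1 tumor left out). *Plaur* was also called lower between R+S and sunitinib, a call kept in 2 of the 8 fits that left out 1 tumor (edgeR adjusted p up to 0.114). With sunitinib tumor 6 left out, *Plat*, the tissue plasminogen activator, also fell with both treatments, where 3.34% and 5.56% of all genes were called lower. Of 18 genes of heparan sulfate and its proteoglycans, the substrates of heparanase, 17 were tested, and 1 fell with sunitinib and 2 with R+S. Of all genes, 2.55% and 2.61% were called lower in these comparisons. *Hspg2*, the basement membrane proteoglycan perlecan, fell from 109 ± 21.3 CPM in control to 19.9 ± 7.25 CPM with sunitinib and 31.9 ± 5.49 CPM with R+S, log2 fold changes of -2.46 ± 0.25 and -1.78 ± 0.25 (edgeR adjusted p = 0.000153 and 0.00211, at most 0.000815 and 0.0102 with any 1 tumor left out). *Ext1*, which builds the heparan sulfate chain, fell with R+S by 0.46 on the log2 scale (edgeR adjusted p = 0.0449), a call lost without control tumor 2, 3 or 4 or any of the 4 R+S tumors (adjusted p up to 0.156). *Gpc2* had a log2 fold change of -1.45 between R+S and sunitinib (edgeR adjusted p = 0.0498), lost without sunitinib tumor 6 or any of the 4 R+S tumors (up to 0.131).

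All 16 listed genes of collagen processing and cross-linking were tested, and 2 rose and 1 fell with sunitinib, while 1 rose and 1 fell with R+S. The shares of all genes were 1.93% higher and 2.55% lower with sunitinib, and 1.55% and 2.61% with R+S. *P4ha1*, which hydroxylates collagen prolines, rose from 35.3 ± 5.47 CPM in control to 99.5 ± 33.0 CPM with sunitinib and 85.3 ± 26.2 CPM with R+S (log2 fold changes 1.50 ± 0.27 and 1.28 ± 0.27, edgeR adjusted p = 0.00683 and 0.0216). The first call was kept without each tumor in turn, and the second was lost without control tumor 2, 3 or 4 or R+S tumor 4 or 5 (adjusted p up to 0.0854). *P4ha2* rose with sunitinib, from 11.1 ± 5.11 to 48.1 ± 28.5 CPM (edgeR adjusted p = 0.0195, lost without control tumor 2, 3 or 4, up to 0.0747). *Serpinh1*, the collagen chaperone, fell from 62.7 ± 13.6 CPM to 33.4 ± 4.85 CPM with sunitinib and 25.4 ± 3.29 CPM with R+S (edgeR adjusted p = 0.00917 and 0.00138, at most 0.0330 and 0.00771 with any 1 tumor left out). None of the 3 other lysyl oxidase genes in this list, *Loxl1*, *Loxl3* and *Loxl4*, passed the threshold in any comparison. Between sunitinib and control the median log2 fold change of the 16 was 0.40, beside 0.03 over all genes (0.15 beside -0.0053 without sunitinib tumor 6), and between R+S and control it was -0.08, beside 0.01.

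**Figure D5:**
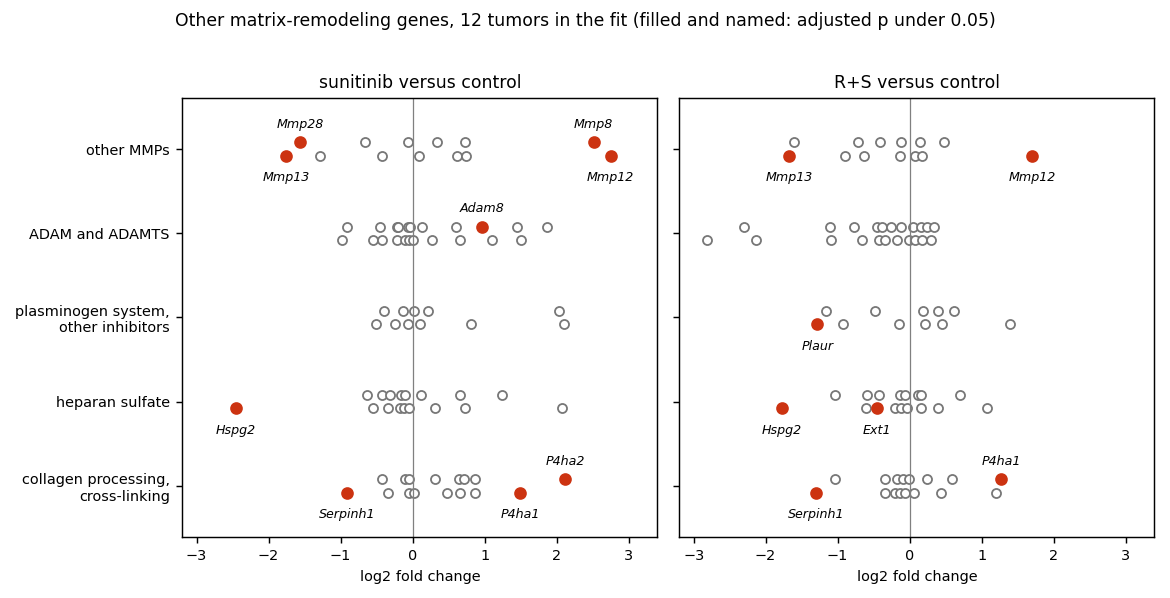
Log2 fold changes of the tested genes of 5 matrix-remodeling lists between sunitinib and control (left) and between R+S and control (right) in the 12-tumor fit, 1 point per gene; filled, named points have an adjusted p under 0.05, *Mmp8* among them on at most 18 reads. *Mmp12* (2.75 and 1.70) and *P4ha1* (1.50 and 1.28) are filled on the right of 0 in both panels, and *Mmp13*, *Hspg2* and *Serpinh1* on the left of 0 in both.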

How the data were processed

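RNA was sequenced from 12 tumors (4 per group), grouped by the treatment given in the labels. The authors deposited 1 table per tumor with raw counts of reads per Ensembl gene, not normalized, from stranded mRNA libraries. The submitters' processing notes name cutadapt 1.2.1, TopHat2 2.0.9, HTSeq 0.5.4p3 and GRCm38, and the annotation release and the strand setting of the counting are not given in the sources used here. Multiply aligned reads, and reads on more than 1 gene, were not counted on genes, so genes with close copies are understated. The 5 summary lines that close each table were left out of library sizes and tests; reads on no gene came to 11.1% to 18.8%, and reads on several genes to 0.694% to 0.953%, of the counted reads plus these 2 lines. Every pair of tumors within a group differed by more than sampling noise (chi-square per degree of freedom 22.8 to 606, where 1 is sampling noise).

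The counts were scaled by TMM and tested with edgeR 4.0.16 (R 4.3.3, limma 3.58.1): genes kept by filterByExpr (minimum count 10, minimum total 15), robust quasi-likelihood fit of 12 tumors, 3 contrasts, Benjamini-Hochberg adjustment over 16645 genes within each contrast, threshold 0.05. SEs were derived from the F statistic and log2 CPM used a prior count of 2. A two-sided exact permutation test over the 70 arrangements of 4 against 4 tumors was added for the 9 genes. The fit was tested on simulated counts of 16258 genes for sunitinib versus control, where it recovered 80 of 100 genes changed by 2 and 37 of 100 changed by 1 on the log2 scale. It also called 6 unchanged genes. These counts hold for the simulated spread and need not carry over to the tumors. RPKM used union exon lengths of GENCODE M21. Genes most like one of the 9 were the 2 with the highest Pearson r of log2 CPM among tested genes with average log2 CPM of at least 1.

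The genes, comparison lists and markers were chosen with earlier results of these data known. Named from the matrix-remodeling lists were genes past the threshold in a contrast, at most 4 per direction. The hypoxia-response genes were given as a median only, although some of them passed. *Adam12*, *Adamts1*, *Adamts7*, *Plat* and the lysyl oxidases that did not pass were named after their values were seen. Alternatives were DESeq2 1.42.0, scaling by library size or upper quartile, no filter, at least 10 counts in every tumor, only the 8 tumors compared, treated tumors that share a label prefix summed, and each tumor left out in turn. The sum by prefix left the control tumors apart, although they share a prefix, so it does not address sharing within that group. Leaving sunitinib tumor 6 out of the fit for R+S versus control, and leaving out each tumor in turn for the called genes of the comparison lists, were chosen after seeing the data.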

Additional observations from a re-analysis of the deposited data

Results flagged for a closer look

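Within each group of 4 tumors, the level of each of the 9 genes and the 3 ratios were searched for a tumor far from the other 3, in 36 groups in all; chance alone marks about 1 in 20 groups, and 6 were marked. Of these, 3 were in sunitinib tumor 6. *Timp3* was 258 CPM there against 24.3 to 34.4 CPM in the other sunitinib-treated tumors, *Timp2* was 96.8 CPM against 45.2 to 53.7 CPM, and the log2 *Mmp14*/*Timp2* ratio was -2.62 against -1.21 to -0.98. In the control group, *Mmp14* was 39.3 CPM in tumor 3 against 24.7 to 27.1 CPM in the others, and the log2 *Mmp14*/*Timp2* ratio was -1.84 in tumor 1 against -0.95 to -0.77. In the R+S group, *Timp2* was 49.5 CPM in tumor 10 against 65.0 to 68.2 CPM in the others.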

How the results depend on the processing

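Genes of the 9 called were 0 in each comparison with 12 tumors. Between R+S and control there were 1 with DESeq2, 3 with only the 8 tumors compared and 1 with treated tumors of a label prefix summed (control tumors kept apart), and between R+S and sunitinib 1 with DESeq2. Leaving out 1 tumor gave 0 to 1 between sunitinib and control, 0 to 3 between R+S and control and 0 to 1 between R+S and sunitinib; the highest counts of the first pair came without sunitinib tumor 6.

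All genes called numbered 745, 693 and 1200 in the same order. They moved to 1477, 1688 and 3045 with DESeq2, to 408 between sunitinib and control with at least 10 counts in every tumor, to 501 between R+S and sunitinib with no filter, and to 380, 2557 and 3 with only the 8 tumors compared. Leaving out 1 tumor gave 440 to 902, 292 to 1627 and 0 to 2861: the lowest came without control tumor 3 in the first and second comparison and without R+S tumor 5 in the third, the highest without sunitinib tumors 5, 6 and 5. The cause was not tested.

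Among the values of single genes under alternatives, 371 kept their direction and side of the threshold, 13 gained a call and 21 turned direction, none of these called. In 4 more, all from DESeq2 (*Timp3* in the 3 comparisons and *Mmp9* between R+S and sunitinib), no adjusted p was given, and their direction was that of edgeR. With treated tumors of a prefix summed, *Hpse* between sunitinib and control turned to 0.0136 and *Mmp9* between R+S and sunitinib to 0.052. The other turns came from leaving out 1 tumor, whose log2 fold changes ranged as follows. Between sunitinib and control the range was -0.37 to 0.12 for *Timp2*, -0.63 to 0.047 for *Hpse* and -0.47 to 0.0086 for *Loxl2*. Between R+S and control it was -0.22 to 0.27 for *Mmp2* and -0.14 to 0.14 for *Timp2*. Between R+S and sunitinib it was -0.10 to 0.33 for *Timp2*, -0.24 to 0.18 for *Lox*, -0.64 to 0.46 for *Mmp9*, -1.15 to 0.69 for *Timp3* and -0.67 to 0.0091 for *Hpse*. *Mmp9* had no value with at least 10 counts in every tumor, nor with only the 8 tumors compared in the R+S comparisons. Where a tumor was left out, 3 remained in its group. No paired analysis was possible because the groups compared share fewer than 2 replicate numbers. Depth limits *Mmp9*, with 2 to 19 reads per tumor, and counting errors are lower bounds because PCR copies were not marked.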
